A study of Homo sapiens with 2 samples.

Results

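Keratins are the intermediate filament proteins of epithelial cells, and the 10 keratin genes described here are KRT7, KRT8, KRT10, KRT17, KRT18, KRT19, KRT20, KRT23, KRT80 and KRT81. They were chosen by gene symbol, as the keratins of hepatocytes and bile duct cells together with further epithelial keratins, and make up 10 of the 58174 genes listed for each library. The data came from PLC-8024, a human hepatocellular carcinoma cell line. Poly(A) RNA was sequenced from 2 libraries. In the first, CTR, the cells were the control of the experiment, and in the second, GDF1, the same line overexpressed GDF1, a secreted ligand of the TGF-β superfamily, after lentiviral transduction and puromycin selection. Each condition had 1 library, so the differences below could not be set against a spread between replicates, and no test was made. Levels are in TPM, a unit that scales reads by transcript length and by library, and the number of reads behind each value is unknown.

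A keratin filament is built from heterodimers of 1 type I (acidic) and 1 type II (basic) chain, and a chain without a partner is degraded. Adult hepatocytes hold a single pair, KRT8 of type II with KRT18 of type I, which protects the cell from mechanical and toxic stress and is a main component of Mallory-Denk bodies. Cells of the bile ducts and hepatic progenitor cells add KRT7 (type II) and KRT19 (type I), and for this reason both are used as markers of duct or progenitor character in liver tumours. KRT20 is a type I keratin of intestinal and urothelial cells, KRT23 is a less studied type I keratin, KRT10 belongs to differentiated epidermis, KRT17 to epidermal appendages and wounded skin, KRT80 is a type II keratin of several epithelia, and KRT81 is a type II keratin of the hair cortex.

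The genes fall into the 2 keratin clusters of the genome, with the type II genes and KRT18 on chromosome 12 and the other type I genes on chromosome 17. Below is the coding stretch for the end of the central α-helical rod, the best conserved part of keratins. It is given for the duct pair KRT7 and KRT19 and for the type I genes of chromosome 17. As a conserved stretch picked by a motif, it is no measure of likeness over the whole gene. Each stretch is 36 bases long, read 5′ to 3′ on the gene's own strand from GRCh37 (hg19), and lies within 1 coding exon of the canonical transcript. Capitals mark the 19 bases that are identical in the 7 genes shown, and KRT15 is included since it lies next to KRT19 and was measured at 1 TPM or more.
KRT7 (type II, chr12:52639370-52639405, plus strand): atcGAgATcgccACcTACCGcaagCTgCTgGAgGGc
KRT19 (type I, chr17:39680040-39680075, minus strand): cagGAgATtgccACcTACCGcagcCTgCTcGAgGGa
KRT17 (type I, chr17:39776922-39776957, minus strand): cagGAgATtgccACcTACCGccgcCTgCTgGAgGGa
KRT15 (type I, chr17:39671735-39671770, minus strand): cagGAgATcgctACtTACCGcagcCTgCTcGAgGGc
KRT20 (type I, chr17:39034408-39034443, minus strand): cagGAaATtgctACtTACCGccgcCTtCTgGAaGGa
KRT23 (type I, chr17:39081617-39081652, minus strand): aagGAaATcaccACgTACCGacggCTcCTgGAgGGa
KRT10 (type I, chr17:38975777-38975812, minus strand): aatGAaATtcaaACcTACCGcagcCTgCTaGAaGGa

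In this stretch KRT19 shared 34 of 36 bases with KRT17 and 32 with KRT15, and 28 with KRT7, its type II partner. Over the aligned bases of the coding sequences, with gaps left out, KRT81 was 94.2% identical to KRT86 and 93.4% to KRT83. By the same measure, KRT8 and KRT7 were 77.0% identical and KRT19 and KRT17 76.0%. Reads cannot be assigned to 1 gene where copies share them in full. Of all 100-base windows of the canonical transcript, 30.3% of those of KRT81 also occurred in another keratin gene or pseudogene, mostly in KRT86 (29.4%). This share was 7.12% for KRT8, which shares windows with 4 genes, and 0.353% for KRT17, while no such window was found for KRT7, KRT10, KRT18, KRT19, KRT20, KRT23 or KRT80. The level of KRT81 is thus uncertain against that of KRT86.

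The levels of the 10 genes spanned several orders of magnitude, and their order was the same in both libraries (plot of levels by gene). KRT8 was at 1424 TPM in CTR and 1777 TPM in GDF1, ranking 111 and 93 among all 58174 genes. Its partner KRT18 was at 1005 TPM in CTR and 1224 TPM in GDF1, with ranks 148 and 133. Together they held 95.2% of the TPM of the 10 keratins in CTR and 95.5% in GDF1, so that the keratin transcripts of PLC-8024 were almost wholly those of the hepatocyte pair.

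KRT10 and KRT23, both of type I, came next at a far lower level. KRT10 was at 54.9 TPM in CTR and 62.6 TPM in GDF1. KRT23 was at 54.0 TPM in CTR and 42.9 TPM in GDF1. KRT81, KRT19 and KRT7 followed, at 6.45, 4.46 and 3.004 TPM in CTR and at 17.4, 10.9 and 7.98 TPM in GDF1. KRT17 (0.668 and 0.560 TPM), KRT20 (0.274 and 0.275 TPM) and KRT80 (0.0190 and 0.198 TPM) stayed under 1 TPM in both libraries and were left out of the counts below. With 1 library per condition, neighbours in this order such as KRT10 and KRT23 in CTR could not be separated.

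**Figure D1:**
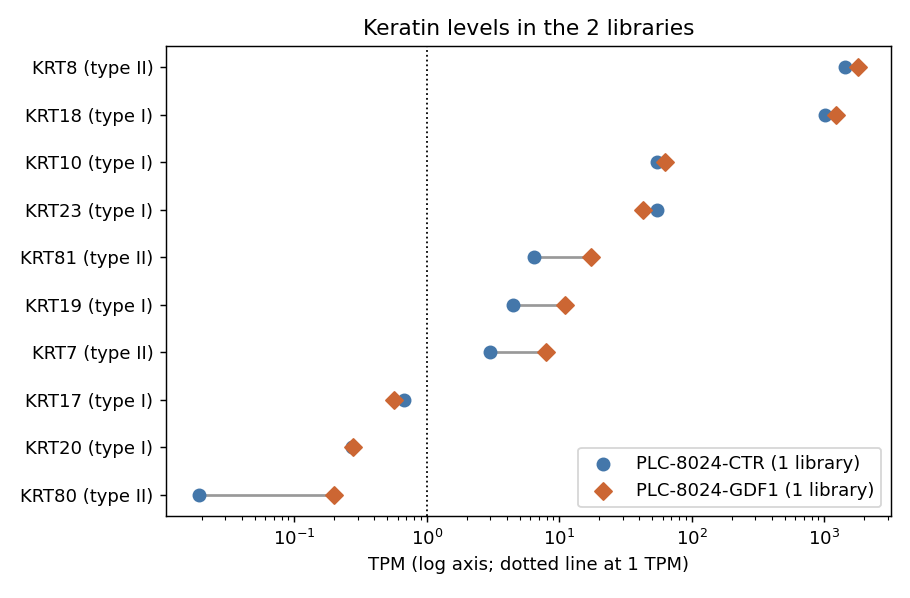
TPM of each of the 10 keratin genes on a log axis, with 1 point per library (CTR and GDF1), a line joining both and a dotted line at 1 TPM. KRT8 and KRT18 lie between 1005 and 1777 TPM, KRT10 and KRT23 between 42.9 and 62.6 TPM, and the points of KRT7, KRT19 and KRT81 lie apart between the libraries.

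The first question was which keratins differed between the GDF1 and the CTR library. Change was taken as the log2 ratio of TPM + 1, which understates the change of low genes, and a gene was called when it was past 2-fold on that scale. Among the 7 of 10 keratins with at least 1 TPM, KRT7, KRT19 and KRT81 were past 2-fold higher in GDF1, none was past 2-fold lower, and 4 lay within. Of all 14929 genes that reached 1 TPM in CTR or GDF1, 720 (4.82%) were past 2-fold higher in GDF1 and 1434 (9.61%) lower, 14.4% in all. The median change was 0.32 over the 7 keratins and −0.20 over all 14929 genes. This median of all genes moves with the scaling. When the GDF1 library was rescaled by a factor of 1.15 (0.21 on the log2 scale), 1040 genes were higher and 1022 lower. The factor was taken from these data, so that genes with at least 5 TPM had no median change as a plain ratio. A more even split is therefore built in. The values of the keratins increased by up to 0.21.

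The duct pair stood out from the hepatocyte pair. KRT7, the type II member, increased from 3.004 to 7.98 TPM, a ratio of 2.66 and a log2 change of 1.17. KRT19, its type I partner, increased from 4.46 to 10.9 TPM, a ratio of 2.45 and a log2 change of 1.13. Both genes thus moved by a similar factor, and the ratio of KRT7 to KRT19 was 0.673 in CTR and 0.730 in GDF1. Their summed level went from 7.47 to 18.9 TPM, which is 2.53 times as much, but remained a small part of the keratin transcripts, at 0.292% of the 10 genes in CTR and 0.601% in GDF1. In bulk RNA, a larger number of cells that express KRT7 and KRT19 cannot be told apart from more RNA per cell. The antisense gene KRT7-AS overlaps 282 exonic bases of KRT7 (7.05%) and was at 0.0001 TPM in CTR and 0.0605 TPM in GDF1.

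KRT8 and KRT18 stayed within 2-fold. The log2 change was 0.32 for KRT8 and 0.28 for KRT18, or 0.53 and 0.49 with the rescaled GDF1 library. The KRT8 to KRT18 ratio was 1.42 in CTR and 1.45 in GDF1. The ratio of the hepatocyte pair to the duct pair was 325 in CTR and 159 in GDF1. For the type II chains alone, KRT8 exceeded KRT7 474-fold in CTR and 223-fold in GDF1, and for the type I chains, KRT18 exceeded KRT19 225-fold and 112-fold. KRT8 and KRT18 overlap head to head on opposite strands, sharing 525 exonic bases in the annotation (7.63% of KRT8 and 17.1% of KRT18), and whether strand was used in counting was not stated.

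KRT81 had the largest log2 change of the 10 genes among those with at least 1 TPM, at 1.305 (6.45 to 17.4 TPM, a ratio of 2.70). Its near copies moved in the same direction. KRT86 was past 2-fold higher, from 1.58 to 4.30 TPM (log2 change 1.04), and KRT83 went from 0.387 to 1.40 TPM (0.79, or 1.85 as a plain ratio), entering the count only through its level in GDF1. Added up, these 3 hair keratins were at 8.42 TPM in CTR and 23.1 TPM in GDF1 (2.74 times as much). The sum lessens the effect of reads exchanged among them but does not remove it, since TPM scales by transcript length. The annotated span of KRT86 also holds KRT81 on the opposite strand and overlaps the span of KRT7 by 2887 bases on the same strand. No exonic bases of KRT86 coincide in position with those of KRT7 or KRT81. KRT7, KRT86, KRT81 and KRT83 thus form a run of neighbouring genes with no other keratin gene, pseudogenes aside, between them. The only other gene with at least 1 TPM in the chromosome 12 span from KRT80 to KRT18 was LINC00592, a long noncoding RNA at 0.386 TPM in CTR and 2.68 TPM in GDF1.

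The remaining genes lay within 2-fold or under the minimum. KRT10 had a log2 change of 0.19 and KRT23 one of −0.33, which became −0.12 after rescaling. KRT17 had a ratio of 0.839, but its 8 pseudogenes held 0.490 and 0.552 TPM, a level near that of KRT17 itself. With these added, the log2 change of KRT17 was −0.03 in place of −0.10. KRT20 had a ratio of 1.00 at a level too low for the count. KRT80 showed the highest ratio of all, 10.4, from a level of 0.0190 TPM in CTR, and its log2 change was 0.23 with 1 TPM added.

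**Figure D2:**
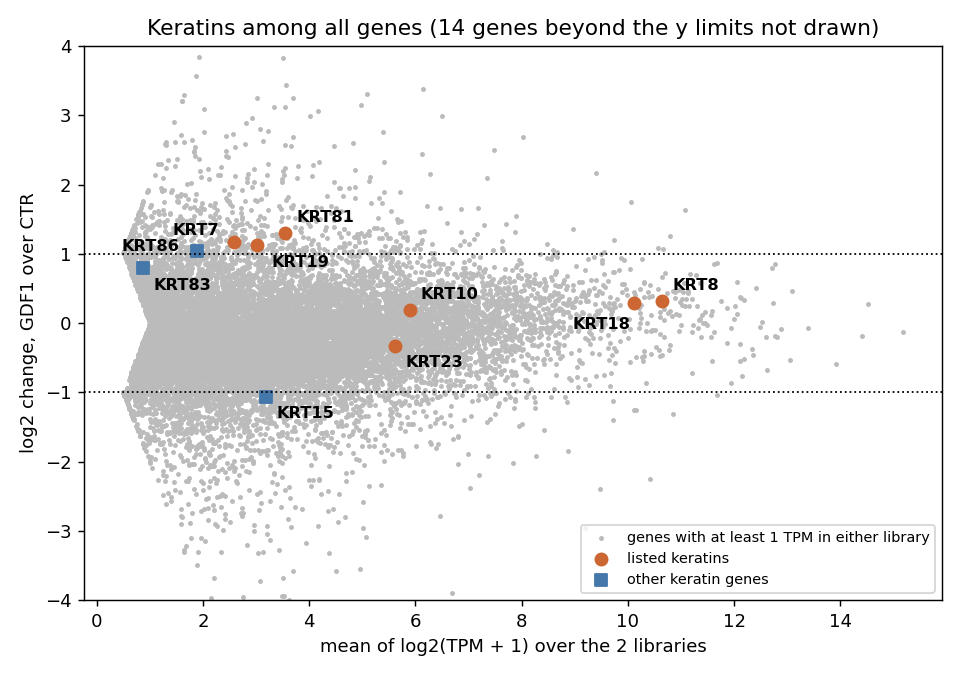
Log2 change (GDF1 over CTR, 1 TPM added) of each tested gene on the y axis against its mean log2(TPM + 1) over both libraries on the x axis, with keratins in colour and dotted lines at 2-fold; 14 genes beyond the y limits are not drawn. KRT81, KRT7, KRT19 and KRT86 lie beyond the upper line, KRT15 lies beyond the lower line at −1.06, and KRT8 and KRT18 lie at 0.32 and 0.28.

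Across the whole family, 55 keratin genes were listed, of which 35 were at the value given in place of 0 (0.0001 TPM) in both libraries. Among all 58174 genes, 31399 were at that value in both. Only 3 keratins outside the 10 reached 1 TPM: KRT15, KRT83 and KRT86. KRT15, a type I keratin of basal epidermal cells, was the single keratin past 2-fold lower, from 12.2 TPM in CTR to 5.30 TPM in GDF1 (log2 change −1.06). It lies 1087 bases from KRT19 on the same strand, and these neighbours differed in direction. After rescaling, KRT15 had a log2 change of −0.89, and with the GC trend described below removed −0.92, both within 2-fold. Summed over all genes of each type, type I keratins were at 1133 TPM in CTR and 1348 TPM in GDF1, and type II keratins at 1435 and 1808 TPM, a type I to type II ratio of 0.789 and 0.745. Without KRT8 and KRT18 this ratio was 11.1 in CTR and 3.92 in GDF1, since KRT10 and KRT23 lifted the type I side in both libraries and KRT81, KRT7 and KRT86 were higher in GDF1 on the type II side.

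Keratin pseudogenes drew little signal. Of 147, 79 were at 0.0001 TPM in both libraries, a share close to that of all genes (31399 of 58174). Only 2 reached 1 TPM, against 14929 of all genes. KRT8P12 was at 4.40 TPM in CTR and 6.15 TPM in GDF1, and KRT8P3 at 1.27 and 0.883 TPM. All 50 pseudogenes of KRT8 together held 0.45% of the level of KRT8 in CTR and 0.43% in GDF1, and the 67 of KRT18 held 0.18% and 0.17% of that of KRT18.

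Change between these libraries varied with the base composition of the longest transcript. Among 11792 protein-coding genes, the 2359 lowest in GC had a median log2 change of −0.48, with 1.74% past 2-fold higher, while the 2359 highest in GC (59.0 to 76.0%) had a median of 0.11, with 8.31% higher. KRT7 (62.0% GC), KRT19 (61.8%) and KRT81 (62.3%) all belong to the highest group, KRT8 (56.2%) and KRT18 (55.7%) to the next, and KRT10 (52.1%) and KRT23 (50.7%) to the middle one. With the trend on GC removed, the log2 change was 1.12 for KRT7, 1.09 for KRT19 and 1.25 for KRT81, so each remained past 2-fold. The same step gave 0.45 for KRT8, 0.42 for KRT18, 0.42 for KRT10 and −0.07 for KRT23.

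Other genes that bear on keratin filaments moved in mixed directions (plot of gene lists). Among all 14929 tested genes, 4.82% were past 2-fold higher and 9.61% lower. Of 15 further intermediate filament genes, 10 were tested, 1 was past 2-fold higher and 2 lower, with a median log2 change of −0.38. The higher one was NES (nestin, of progenitor cells), from 1.75 to 7.48 TPM. The lower ones were SYNM (synemin), from 2.97 to 0.249 TPM, and LMNB1 (lamin B1, of the nuclear lamina), from 10.8 to 4.30 TPM, of which LMNB1 lay within 2-fold after rescaling or with the GC trend removed. VIM, the intermediate filament of mesenchymal cells, was at 5.65 and 3.21 TPM (−0.66), and NEFH at 6.21 and 3.05 TPM (−0.83). Among 18 genes of desmosomes and plakins, which anchor keratins at the cell border, 10 were tested and 1 was past 2-fold, JUP (plakoglobin), lower from 99.6 to 35.5 TPM (−1.46). Desmoplakin, DSP, which binds keratin directly, was at 11.7 and 6.27 TPM (−0.81), PKP4 (plakophilin 4) at 14.4 and 10.3 TPM (−0.44), and PLEC (plectin) at 22.2 and 30.3 TPM (0.44). The median of this list was −0.43. Of 16 genes for proteins that bind, modify or turn over keratins, MAPK14 (the p38 kinase, which phosphorylates KRT8) was higher, from 3.75 to 9.02 TPM (1.08). PRKCE, the kinase PKCε, was lower from 2.94 to 0.612 TPM (−1.29), and TGM2, the transglutaminase that cross-links keratins in Mallory-Denk bodies, was lower from 152 to 66.1 TPM (−1.19). SQSTM1 (p62, the other main component of those bodies) was at 511 TPM in CTR and 1021 TPM in GDF1, a log2 change just under 2-fold with 1 TPM added, 1.20 after rescaling and 1.10 with the GC trend removed. YWHAH, a 14-3-3 protein, was at 48.7 and 27.7 TPM (−0.79). The median of these 16 was −0.30. Their count of 1 higher and 2 lower became 2 higher and 1 lower in both of those settings, with TGM2 at −0.99 after rescaling and PRKCE at −0.97 with the GC trend removed.

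Other markers of duct and progenitor cells differed in both directions. Of 17 duct and progenitor genes other than keratins, 12 were tested, none was past 2-fold higher and 4 were lower, with a median of 0.01. This count moved with the scaling, to 1 higher (MUC1) and 3 lower after rescaling, and to 1 higher (PROM1) and 2 lower of 11 genes with the GC trend removed. With 0.1 TPM added or as a plain ratio, it was 1 higher (MUC1) and 4 lower. Among all 14929 tested genes, 720 were higher and 1434 lower with 1 TPM added, and 1167 and 2315 with 0.1 TPM added. As a plain ratio, 1167 of 14810 genes were higher and 2380 lower. With the GC trend removed, 1030 of 14640 genes were higher and 788 lower. SOX9, a transcription factor of duct cells, was at 4.50 and 5.29 TPM (0.19). EPCAM was at 0.172 TPM in CTR and listed at 0.0001 TPM in GDF1, and SPP1 was at 0.0001 TPM in both. MUC1, an apical mucin of duct cells, was at 7.29 and 14.7 TPM, with a log2 change of 0.92 that became 1.12 after rescaling and 1.02 as a plain ratio. PROM1 (prominin 1, a progenitor marker) was at 3.80 and 7.03 TPM, with a log2 change of 0.74, or 1.15 with the GC trend removed. Those past 2-fold lower were CDH1 (E-cadherin), from 10.4 to 0.329 TPM (−3.10), AFP (α-fetoprotein), from 31.4 to 9.75 TPM (−1.59), CFTR, from 1.69 to 0.209 TPM (−1.15), and ANXA4, from 101 to 46.1 TPM (−1.12). ANXA4 lay within 2-fold after rescaling (−0.91), and both ANXA4 (−0.65) and CFTR (−0.71) did so with the GC trend removed.

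Hepatocyte genes other than keratins, had a lower median than KRT8 and KRT18. Of 18, 16 were tested, 1 was past 2-fold higher and 6 were lower, with a median of −0.82. After rescaling and with the GC trend removed, 2 were higher and 3 lower, with medians of −0.68 and −0.45. ALB, CPS1 and HNF4A then lay within 2-fold, ALB only just so after rescaling (−0.998). FGA, a fibrinogen chain at 468 TPM in CTR and 911 TPM in GDF1, was then higher by 1.17 and 1.37 on the log2 scale. With 0.1 TPM added and as a plain ratio, 1 was higher and 8 were lower, ADH1A and TAT included, with medians of −0.98 and −0.99. Over all genes the calls also rose in both settings, from 720 to 1167 higher and from 1434 to 2315 or 2380 lower. TTR (transthyretin) went from 7.17 to 0.340 TPM (−2.61), APOA1 from 603 to 158 TPM (−1.93), ARG1 from 4.11 to 0.508 TPM (−1.76), and ALB (albumin) from 14.98 to 6.07 TPM (−1.18). CPS1 and HNF4A were lower by a log2 change of −1.12 and −1.02, and ADH1C was higher, from 6.997 to 33.7 TPM (2.12). SERPINA1, at 5308 TPM in CTR and 2915 TPM in GDF1, exceeded KRT8 in both libraries.

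**Figure D3:**
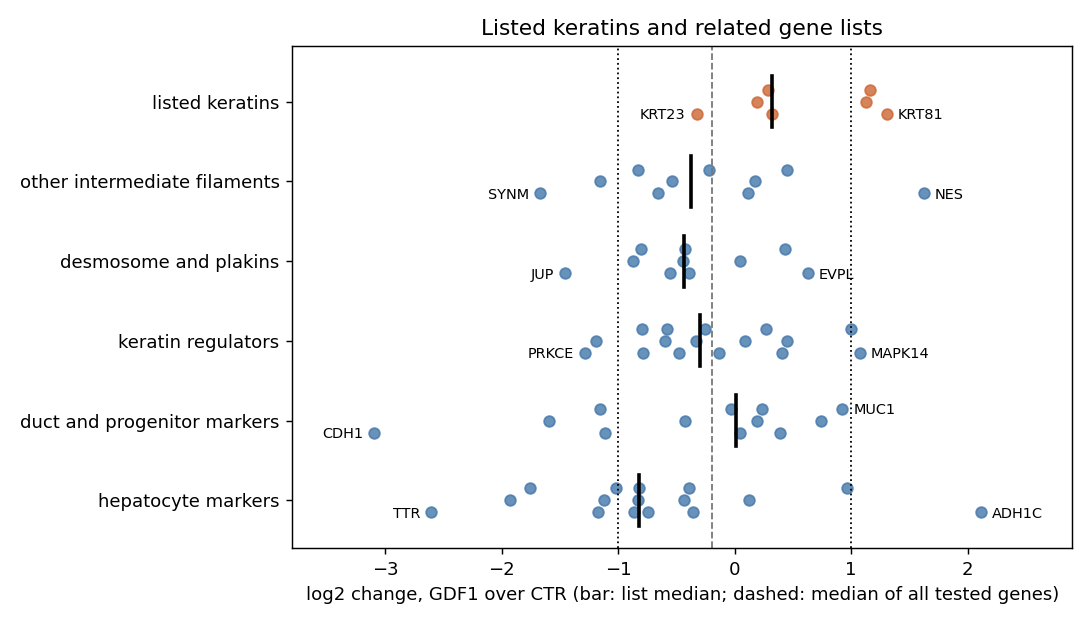
Log2 change (GDF1 over CTR, 1 TPM added) of each tested gene, 1 point per gene, for the keratins and 5 related lists; the bar is the list median, the dashed line the median of all tested genes (−0.20) and the dotted lines 2-fold. The keratin median is 0.32, and the hepatocyte markers have the lowest median, −0.82.

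As to other cell types, genes of squamous epithelium, where KRT10 and KRT17 are usual, were mostly at or near 0. Of 10, 5 were at 0.0001 TPM in both libraries, TP63 was at 0.0151 and 0.0527 TPM, and the tested ones, PERP (67.2 and 53.1 TPM) and TGM1 (1.35 and 1.75 TPM), lay within 2-fold. Of 11 genes of fibroblasts, endothelium and blood, 5 were at 0.0001 TPM in both, COL1A2, DCN and PTPRC among them, and only PECAM1 reached 1 TPM (23.2 and 22.2 TPM). For comparison, 31399 of all 58174 genes were at 0.0001 TPM in both libraries, and 14929 reached 1 TPM in either. The shares of both lists at 0.0001 TPM were near that of all genes, so these counts are no result about cell type. The introduced gene, GDF1, was at 2.096 TPM in CTR and 4.64 TPM in GDF1, a log2 change of 0.87 with 1 TPM added and of 1.15 as a plain ratio. CERS1, whose annotated span contains the coding exons of GDF1, went from 13.3 to 9612 TPM, and reads on these shared exons cannot be told apart.

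**Figure D4:**
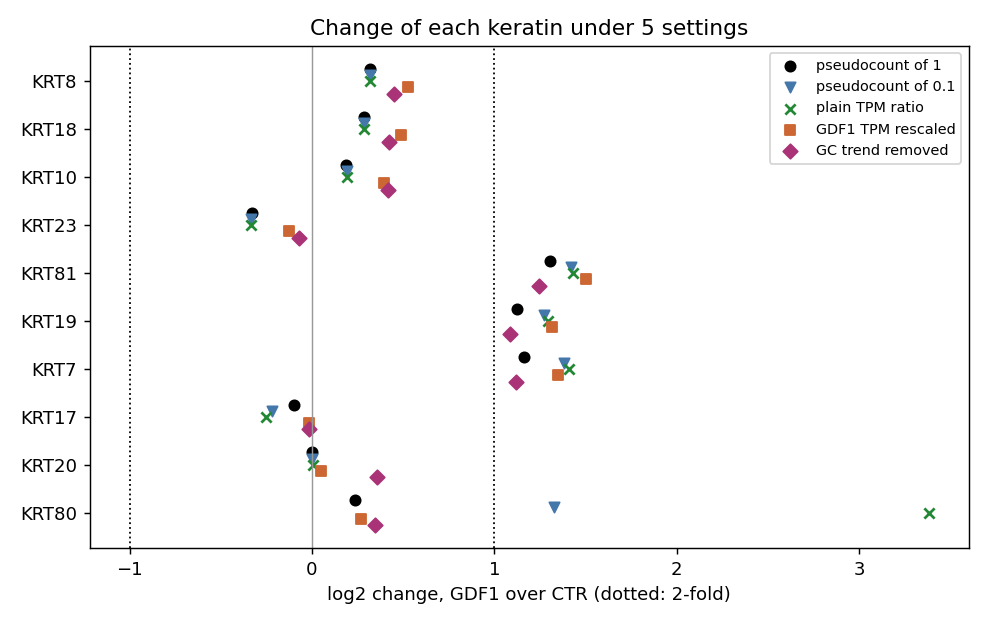
Log2 change of each keratin gene under 5 settings: 1 TPM added, 0.1 TPM added, the plain TPM ratio, the rescaled GDF1 library and the GC trend removed. KRT7, KRT19 and KRT81 lie beyond 1 in each, KRT8 and KRT18 stay under it, and KRT80 ranges from 0.23 to 3.38.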

How the data were processed

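The authors extracted RNA from PLC-8024 cells with and without GDF1 overexpression (1 library each), prepared poly(A) libraries and sequenced them in pairs. Per the submitters' processing notes, FastQC 0.11.2, Trimmomatic 0.36, HISAT2 2.1.0, StringTie 1.3.3b and bedtools 2.26.0 were used on hg19. The deposited values are TPM per Ensembl gene, with 0.0001 in place of 0. TPM keeps no depth, and strand use in counting was not given in the sources used here.

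Both tables were joined on gene ID. Change was log2((TPM + 1)/(TPM + 1)), for genes that reached 1 TPM in CTR or GDF1, called past 2-fold without a test. Positions, exons, GC content and sequences came from GENCODE 44 on GRCh37, which matched 55726 of 58174 IDs and may differ from the authors' annotation. The end of the rod was found by translating coding exons and searching for a conserved amino acid motif. A lowess curve (span 0.3) gave the GC trend.

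All 10 keratins are named. Every other keratin with at least 1 TPM is named as well, and of each list the 4 largest changes among genes with at least 5 TPM and those past 2-fold. Cell type markers and GDF1 and CERS1 complete the named genes, and some items are not reported here. With 2 libraries no gene was named for likeness. The members and lists were chosen with earlier results of these data known. Only the change measure, its 2-fold calls and the rescaling were tested on simulated data, with planted changes well past 2-fold. The software was Python 3.11.15, numpy 2.4.6, pandas 2.3.3, statsmodels 0.14.6, matplotlib 3.10.9 and Biopython 1.88.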

Additional observations from a re-analysis of the deposited data

How the results depend on the processing

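Of the 10 genes, KRT7, KRT19 and KRT81 were past 2-fold with 0.1 TPM added, the plain TPM ratio and the GDF1 library rescaled. The same 3 were past it with the GC trend removed and with a minimum of 5 TPM or none. Less TPM added, rescaling by 1.15 and no minimum could not have removed an increased gene. KRT7 and KRT19 reached 5 TPM only in GDF1, so that filter gives no support either. Removing the GC trend was the setting that lowered the values, to 1.12 for KRT7, 1.09 for KRT19 and 1.25 for KRT81. No change of direction was found among the 51 values recomputed for the 10 genes, the sum of KRT81 with KRT83 and KRT86 included. Of these, 49 kept their side of 2-fold, and the exceptions were KRT80 with 0.1 TPM added (1.33) and as a plain ratio (3.38). Many of the 51 could not change direction, since 0.1 TPM added and the plain ratio keep it by construction. No pseudogenes were listed for KRT7, KRT10, KRT20, KRT23, KRT80 and KRT81, so adding pseudogenes left their values unchanged. The log2 change of the type I to type II ratio was −0.08 with all keratins and −1.50 without KRT8 and KRT18. Rescaling moved the share of higher genes among those past 2-fold from 33.4% to 50.4%, and removing the GC trend moved it to 56.7%. Both settings centre the changes near 0, so a more even split comes with them and is no result about the genes. The other settings for the counts over all keratin genes (4 to 6 past 2-fold, against 5) and over the gene lists (14 to 23, against 18), and the sum of KRT81 with KRT83 and KRT86, were chosen after seeing the data. Calls over all genes also moved with the setting, from 720 higher and 1434 lower to 1167 and 2315 with 0.1 TPM added. No paired analysis was possible because CTR and GDF1 were 1 library each, and for the same reason no replicate could be left out. TPM keeps no read number, so the precision of the genes under 1 TPM is unknown.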

Other observations

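Keratin-associated genes were mostly silent. Of 110 KRTAP genes, which encode matrix proteins of the hair shaft, 96 were at 0.0001 TPM in both libraries, against 31399 of all 58174 genes. KRTAP5-1 was at 1.02 TPM in CTR and 2.34 TPM in GDF1, and KRTAP3-1, which lies between KRT10 and KRT17 on chromosome 17, was listed at 0.0001 TPM in CTR and was at 1.91 TPM in GDF1. KRTCAP2, a subunit of the oligosaccharyltransferase complex despite its name, was at 440.0 TPM in CTR and 837.6 TPM in GDF1. Its log2 change of 0.93 is within 2-fold, but was 1.13 after rescaling and 1.22 with the GC trend removed. KRTCAP3 was at 2.95 and 1.65 TPM (−0.58).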
